A study of Mus musculus with 6 samples.

Results

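The genes described here carry peptides of the cell's own proteins to the cell surface on MHC class I molecules. They are 10 genes listed by name: the light chain B2m, the classical heavy chains H2-K1 and H2-D1, the peptide transporter genes Tap1 and Tap2, the loading factor Tapbp, the immunoproteasome subunits Psmb8, Psmb9 and Psmb10, and the regulator Nlrc5. All 10 were found among the 55414 gene identifiers of the count table, and 9 of them, every one except Nlrc5, passed the filter on low counts that 9749 genes passed.

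Paneth cells of wild type mice were isolated from a suspension of small intestinal cells by FACS, and their RNA was sequenced in bulk. The mice of the 3 St_TNF libraries ate standard chow and those of the 3 ZincDef_TNF libraries ate zinc depleted chow, given for 7 weeks, and both groups received TNF 3 h before the cells were collected. TNF is thus shared by all 6 libraries, and as no library without TNF was analysed here, effects of TNF cannot be read from these values. The design text calls the samples of a group biological replicates and speaks of 4 per group, of which 3 per group were analysed here. The labels do not say whether animals shared a litter or a day, so p-values measure the spread between these libraries.

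In the class I pathway, proteins of the cytosol are cut by the proteasome, and the peptides are pumped into the endoplasmic reticulum by the TAP transporter. There they are loaded, with the help of tapasin (Tapbp), onto a heavy chain bound to beta-2-microglobulin (B2m), and the complex is shown to CD8 T cells. Interferon and TNF are known inducers of the pathway, partly through the transcription factors IRF1 and NF-kB and the transactivator Nlrc5, and cells under such signals exchange the catalytic subunits Psmb5, Psmb6 and Psmb7 of the proteasome for Psmb8, Psmb9 and Psmb10.

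Total counts lay between 6139397 and 12772373 per library. The sorted cells carried their label in the data: the summed level of 8 Paneth cell markers, among them Lyz1 and Itln1, was 418066 to 564352 CPM (a gene's counts as a share of the library total, scaled to the same total for each library) in the 6 libraries. The factors of the TMM method, which rescales libraries on genes whose relative counts are not extreme, ran from 0.459 in ZincDef_TNF 3 to 1.73 in St_TNF 1. As the TMM factors differed this widely, values scaled by TMM and values scaled by total counts are both given. Libraries also differed in other secretory cells. The 5 goblet cell markers summed to 5629 CPM in ZincDef_TNF 1, most of it from the mucin Muc2, and to 803 to 2454 CPM in the other 5, but only Muc2 and Clca1 peaked there, while Fcgbp and Zg16 were highest in St_TNF 2 and Tff3 in ZincDef_TNF 2. The 4 tuft cell markers summed to 661 CPM in St_TNF 2 and to 21.6 to 175 CPM elsewhere.

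The stretches before the start sites of B2m, H2-K1 and H2-D1 are shown because these 3 genes gave most of the class I counts and their upstream sequence holds the letters known for NF-kB and IRF binding. RefSeq windows were found for 8 of the 10 genes, on build GRCm38.p6, and not for Tap2 and Nlrc5. Each window covered 250 bases before a start site. Capitals mark matches on either strand to GGGNNTTNC (a core of the NF-kB letters), AANNGAAA (the IRF letters) and CCAAT. No match overlapped another, and these letters were chosen after the windows of the genes had been looked at.
B2m, chr2:122147540-122147648, plus strand: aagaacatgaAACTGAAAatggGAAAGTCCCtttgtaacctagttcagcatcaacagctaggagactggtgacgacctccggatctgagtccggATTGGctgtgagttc
H2-K1, chr17:34000334-34000468, minus strand: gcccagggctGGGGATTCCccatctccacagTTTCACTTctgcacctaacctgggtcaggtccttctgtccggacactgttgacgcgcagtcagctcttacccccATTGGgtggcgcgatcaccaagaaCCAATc
H2-D1, chr17:35262913-35263055, plus strand: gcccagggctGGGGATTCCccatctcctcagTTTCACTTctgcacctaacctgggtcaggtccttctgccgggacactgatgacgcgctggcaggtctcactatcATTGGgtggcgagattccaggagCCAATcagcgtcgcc

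All 3 motifs were present in the windows of B2m, H2-K1 and H2-D1. Of 32851 mouse windows of the same length, 13.0% held the NF-kB letters, 21.3% the IRF letters, 33.8% CCAAT and 0.928% all 3. H2-K1 and H2-D1 were near copies of each other here. Over 121 aligned bases, 114 were identical (94.2%), and the NF-kB and IRF letters began 21 bases apart in both. In B2m the order was turned round, with the IRF letters first, at -137, and the NF-kB letters at -125 from the start site.

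Psmb9 and Tap1 lie head to head on chromosome 17 and share the stretch between their start sites, which is shown for that reason. It held a single CCAAT and no match to the other motifs as written above. Other forms of the NF-kB and IRF letters were not searched for.
Psmb9 and Tap1, chr17:34187331-34187555, plus strand: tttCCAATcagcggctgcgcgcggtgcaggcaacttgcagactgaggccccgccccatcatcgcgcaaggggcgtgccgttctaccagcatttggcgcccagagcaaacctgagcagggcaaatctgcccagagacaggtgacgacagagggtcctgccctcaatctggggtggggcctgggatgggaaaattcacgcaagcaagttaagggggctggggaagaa

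The window of Tapbp also held CCAAT only, and those of Psmb8 and Psmb10 held none of the 3 motifs. A match describes letters in the window and is no measure of binding.

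Levels were compared between genes as CPM by total counts per kilobase of the canonical transcript (coordinates on GRCm39). B2m (chr2:121977957-121983594, 4 exons) had the highest mean level, 118 ± 41.5 CPM per kilobase (SD, n = 6 libraries), above 98.3% of the tested genes. H2-K1 (chr17:34214987-34219321) followed at 115 ± 55.7 and H2-D1 (chr17:35481691-35486475) at 96.0 ± 41.2 CPM per kilobase. These 3 genes, the parts of the surface molecule itself, gave 72.9% to 82.4% of the counts of the 10 genes in every library. B2m was above H2-K1 in 4 of 6 libraries and H2-K1 above H2-D1 in 5 of 6, so their order lies within the spread between libraries, and by coding length (an alternative chosen after seeing the data) H2-D1 stood above H2-K1.

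Among the genes that make and move the peptides, Psmb10 (chr8:106662362-106665077) was highest with 35.3 ± 5.20 CPM per kilobase, and it was below H2-D1 and above Tapbp in all 6 libraries. Tapbp (chr17:34134873-34148267) reached 18.3 ± 11.2 and Psmb8 (chr17:34416690-34420428) 10.4 ± 1.94 CPM per kilobase, with Tapbp higher in 4 of 6 libraries. Tap1 (chr17:34405996-34416199) and Psmb9 (chr17:34400960-34406738), at 6.46 ± 4.06 and 6.31 ± 2.35 CPM per kilobase, were not set apart: Tap1 was higher in 2 of 6 libraries, and by coding length the order turned. Tap2 (chr17:34422501-34435829) stood at 4.05 ± 2.78 CPM per kilobase, below Psmb9 in 5 of 6 libraries.

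Nlrc5 (chr8:95160984-95253900), the transactivator of class I genes, was close to the limit of detection. Its counts were 0, 0 and 3 in St_TNF 1 to 3 and 14, 1 and 0 in ZincDef_TNF 1 to 3. The limit that goes with 0 reads, 3 counts, was 0.235 to 0.489 CPM in these libraries, so only ZincDef_TNF 1, at 1.40 CPM, lay clearly above that limit. No fold change is given for it.

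**Figure D1:**
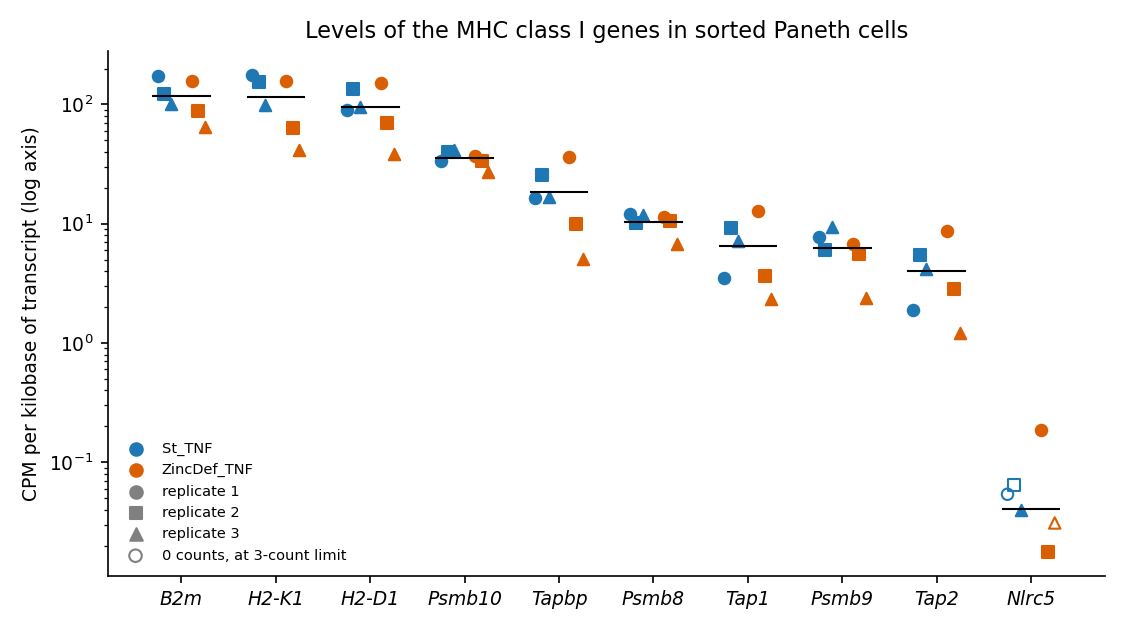
Level of each class I gene in CPM (by total counts) per kilobase of transcript on a log axis, with 1 point per library, colour for diet group, shape for replicate number, and a bar for the mean of the 6 libraries. B2m, H2-K1 and H2-D1 lie together at means of 96.0 to 118 CPM per kilobase and Nlrc5 lies below all others, with open points at the 3-count limit where its count was 0.

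The 10 genes together took 0.0806%, 0.0868% and 0.0647% of all counts in St_TNF 1, 2 and 3. They took 0.1004%, 0.0465% and 0.0296% in ZincDef_TNF 1, 2 and 3. The highest and the lowest share were thus both from zinc depleted mice. The counting error was small beside this spread, with a Wilson 95% interval of 0.0287% to 0.0305% for the lowest library. In bulk libraries, fewer cells of a type and less RNA per cell cannot be told apart.

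No class I gene differed between the diets in the edgeR quasi-likelihood test adjusted over all 9749 genes, in which no gene at all was called (0% of genes, smallest adjusted p = 0.681, and 645 genes, 6.62%, at an unadjusted p under 0.05). None of the 9 tested class I genes had an unadjusted p under 0.05. After TMM, 7 of the 9 had a log2 fold change above 0 with zinc depletion, against 50% of all tested genes, and their median was 0.28 against 0.00 for all genes. This median was 0.02 without St_TNF 1, 0.57 without St_TNF 3 and 0.18 without ZincDef_TNF 1. Fold changes also went with transcript length: the 2435 shortest tested transcripts (123 to 2118 bases), among them those of 6 of the 9 class I genes, had a median of 0.29 and the 2435 longest one of -0.14. The part of length in the class I values was not tested. With total counts only, the median of all genes moved to -0.67, 13.1% of all genes and 1 of the 9 class I genes (Tap2) had a positive value, and the class I median was -0.24. The groups overlapped for all 9 genes on both scales, while 10.1% of tested genes did not overlap after TMM and 10.9% did not by total counts. By total counts ZincDef_TNF 3, the library with the lowest TMM factor, was the lowest of the 6 for all 9 genes, and the sign of the class I values moved with the scaling, as it did for all genes. The class I median lay above that of all genes on both scales, but a scaling shifts all genes of a library alike. The other scale is thus no independent result. Without St_TNF 1 the medians after TMM were 0.017 for the class I genes and 0.013 for all genes.

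B2m, the invariant light chain, measured 109, 88.1 and 123 TMM-scaled CPM in the St_TNF libraries. In the ZincDef_TNF libraries it measured 118, 150 and 153. ZincDef_TNF 1 fell below St_TNF 3, so the groups overlapped. The log2 fold change was 0.40 (SE 0.37, adjusted p = 0.767 by edgeR). By total counts it measured 187, 132 and 110 CPM against 171, 95.8 and 70.1 CPM, and the fitted value was -0.35.

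H2-K1, the heavy chain of the K locus, was the most even of the 9 genes after TMM, with a highest value 1.22 times the lowest. It measured 167, 166 and 179 TMM-scaled CPM with standard chow and 174, 159 and 147 with zinc depletion. The values of the diets overlapped, with a log2 fold change of -0.09 (SE 0.37, adjusted p = 0.946 by edgeR). By total counts alone the same libraries spread from 67.3 CPM in ZincDef_TNF 3 to 288 CPM in St_TNF 1.

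H2-D1, the heavy chain of the D locus, measured 110, 188 and 224 TMM-scaled CPM in St_TNF 1, 2 and 3. With zinc depletion it measured 219, 230 and 178. St_TNF 1 stood low and the other 5 libraries lay close together. The log2 fold change was 0.26 (SE 0.42, adjusted p = 0.855 by edgeR), 0.02 without St_TNF 1 and 0.54 without St_TNF 3.

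The ratio of H2-K1 to H2-D1 within a library does not depend on the scaling between libraries. Per length it was 1.99 in St_TNF 1 (Wilson-based 95% counting interval 1.86 to 2.13), 1.15 in St_TNF 2 and 1.04 in St_TNF 3. In the ZincDef_TNF libraries it was 1.04, 0.908 and 1.08. St_TNF 1 thus stood apart from the other 5, which lay between 0.908 and 1.15. The mean was 1.40 ± 0.52 with standard chow and 1.01 ± 0.09 with zinc depletion (SD, n = 3 each), a log2 difference of -0.41 (exact two-sided permutation p = 0.2, adjusted over 4 ratios p = 0.6, where 3 against 3 libraries cannot go below 0.1). Without St_TNF 1 the log2 difference was -0.13. Of all stretches of 75 bases of these transcripts, 80.4% for H2-K1 and 67.5% for H2-D1 were found in no other gene when strand is ignored, and 98.4% and 93.1% when it is kept, so part of their reads could be split or dropped by the counting.

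Tap1 and Tap2 form the peptide transporter, and after TMM they varied most between libraries among the 9 genes, while by total counts Tapbp varied more than Tap1. Tap1 measured 6.33, 19.2 and 24.9 TMM-scaled CPM in the St_TNF libraries and 27.3, 17.7 and 15.7 in the ZincDef_TNF libraries. Tap2 measured 4.35, 14.5 and 18.5 against 23.9, 17.5 and 10.4. For both genes the lowest library was St_TNF 1, the highest was ZincDef_TNF 1, and the other 4 lay between them. The log2 fold changes were 0.28 for Tap1 (SE 0.50, adjusted p = 0.876 by edgeR) and 0.48 for Tap2 (SE 0.53, adjusted p = 0.796 by edgeR). Without St_TNF 1 they were -0.12 and 0.07, without St_TNF 3 0.73 and 0.94, and without ZincDef_TNF 1 0.00 and 0.18.

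Tapbp, which holds empty heavy chains at the transporter, followed the same order at its ends. It measured 28.3, 50.7 and 55.3 TMM-scaled CPM with standard chow and 74.2, 46.2 and 32.6 with zinc depletion. The fitted log2 difference was 0.19 (SE 0.43, adjusted p = 0.901 by edgeR), -0.05 without St_TNF 1 and -0.17 without ZincDef_TNF 1. ZincDef_TNF 1, highest for the transporter and Tapbp, was also highest for 2 of the 5 goblet cell markers, Muc2 and Clca1. St_TNF 2, with the highest tuft cell marker sum, was second for Tap1, Tap2 and Tapbp by total counts, but not after TMM. The part of these other cells in the values was not tested.

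**Figure D2:**
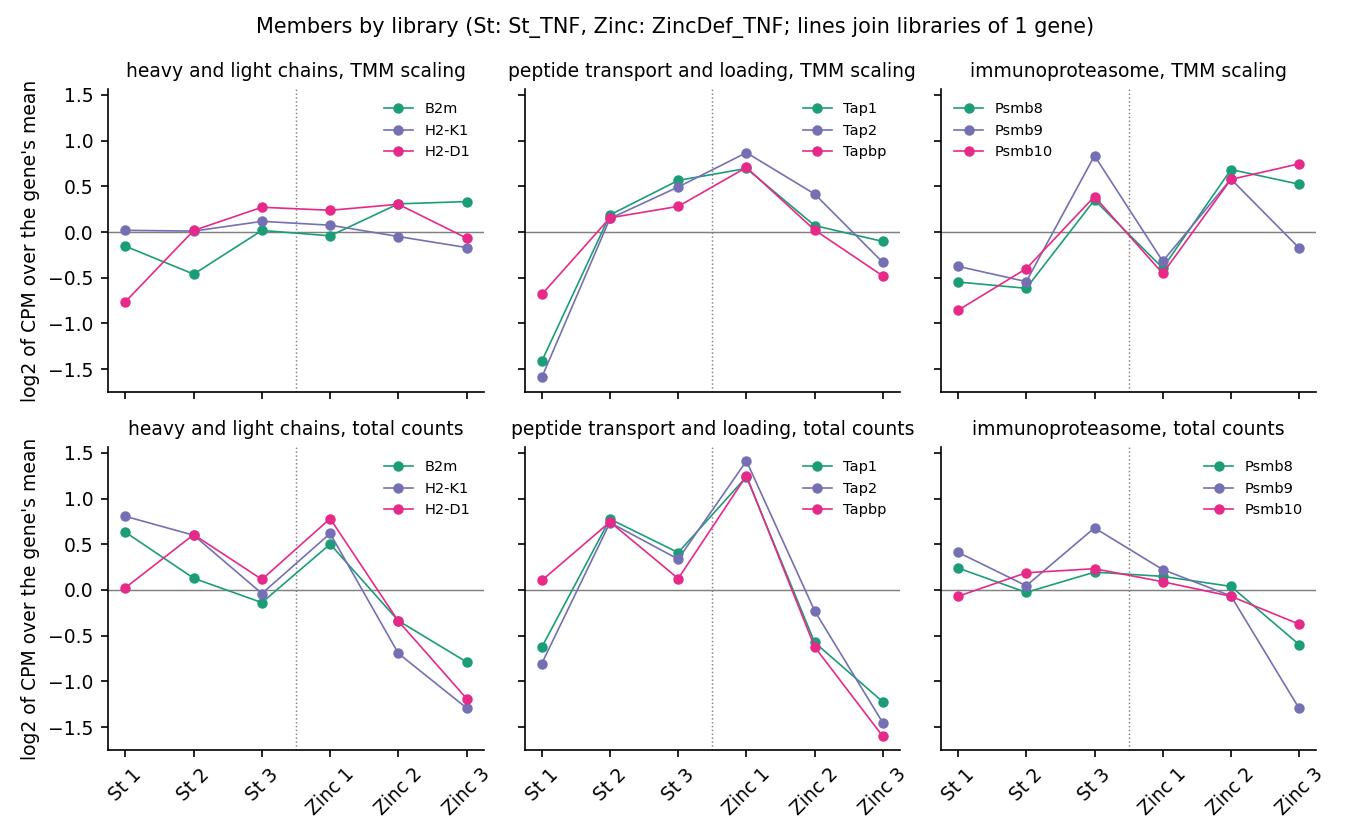
log2 of CPM relative to each gene's mean over the 6 libraries, for the surface molecule genes (left), transport and loading genes (middle) and immunoproteasome genes (right), after TMM (top) and by total counts (bottom), with lines joining the libraries of 1 gene. Tap1 and Tap2 share their low point in St_TNF 1 on the TMM scale, and by total counts ZincDef_TNF 3 is the lowest library for all 9 genes, with for example 70.1 CPM of B2m.

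The immunoproteasome genes encode the inducible catalytic subunits. Psmb8 measured 11.9, 11.4 and 22.3 TMM-scaled CPM in St_TNF 1, 2 and 3 and 13.3, 28.0 and 25.1 in ZincDef_TNF 1, 2 and 3. Psmb10 measured 25.4, 34.8 and 60.2 against 33.6, 68.5 and 77.1. In both genes St_TNF 3, ZincDef_TNF 2 and ZincDef_TNF 3 were the 3 high libraries after TMM, and these had the 3 lowest TMM factors (0.897, 0.639 and 0.459). By total counts ZincDef_TNF 3 was instead the lowest library for both, at 11.5 CPM of Psmb8 and 35.4 CPM of Psmb10. The log2 fold changes were 0.54 for Psmb8 (SE 0.43, adjusted p = 0.731 by edgeR) and 0.57 for Psmb10 (SE 0.46, adjusted p = 0.731 by edgeR), the largest of the 9 genes. They were 0.96 and 1.03 without St_TNF 3 and 0.82 and 0.87 without ZincDef_TNF 1. Psmb10 was at 0.33 without St_TNF 1 and 0.38 without ZincDef_TNF 3, and Psmb8 was at its lowest, 0.36, without ZincDef_TNF 2. By total counts Psmb10 was the most even gene, from 35.4 to 53.9 CPM, and its fitted value was -0.23.

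Psmb9 measured 6.09, 5.42 and 14.1 TMM-scaled CPM with standard chow and 6.33, 11.8 and 7.00 with zinc depletion. After TMM it shared the high values of St_TNF 3 and ZincDef_TNF 2 with the other immunoproteasome genes but not that of ZincDef_TNF 3. By total counts Psmb9 was highest in St_TNF 3 at 12.6 CPM, with 7.54 CPM in ZincDef_TNF 2 and 3.21 CPM in ZincDef_TNF 3. The log2 fold change of Psmb9 was -0.04 (SE 0.48, adjusted p = 0.986 by edgeR), and it was 0.57 without St_TNF 3. Psmb9 and Tap1 overlap on opposite strands by 364 exon bases, and 34.5% of the 75-base stretches of Psmb9 lie in that overlap. Whether the counting used strand is not given in the sources used here, so Psmb9 reads may have been shared with Tap1.

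Each immunoproteasome subunit was next set against the standard subunit it replaces, per length and within a library. Psmb8 stood near its counterpart Psmb5, at ratios of 1.01, 0.860 and 1.23 in the St_TNF libraries and 1.39, 1.02 and 0.757 in the ZincDef_TNF libraries. The means were 1.03 ± 0.18 and 1.06 ± 0.32 (SD, n = 3 each), with a log2 difference of 0.00 (exact permutation p = 1, adjusted p = 1). For Psmb10 and Psmb7 the ratios were 0.959, 1.18 and 1.76 against 1.503, 1.78 and 1.49, with means of 1.30 ± 0.42 and 1.59 ± 0.17 and a log2 difference of 0.34 (exact permutation p = 0.3, adjusted p = 0.6), which was 0.14 without St_TNF 1 and 0.58 without St_TNF 3.

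Psmb9 was far below its counterpart Psmb6 in all 6 libraries. The ratios were 0.114, 0.0989 and 0.192 with standard chow and 0.172, 0.09995 and 0.0390 with zinc depletion. The lowest, in ZincDef_TNF 3, rested on 41 counts of Psmb9 and 804 of Psmb6 (95% counting interval 0.0286 to 0.0534), and it lay below the intervals of the other 5 libraries. The means were 0.135 ± 0.050 and 0.104 ± 0.067 (SD, n = 3 each), a log2 difference of -0.56 (exact permutation p = 0.5, adjusted p = 0.667), which was 0.02 without ZincDef_TNF 3. The diets overlapped for all 4 ratios, and with 3 libraries per group a difference could not have passed the threshold.

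**Figure D3:**
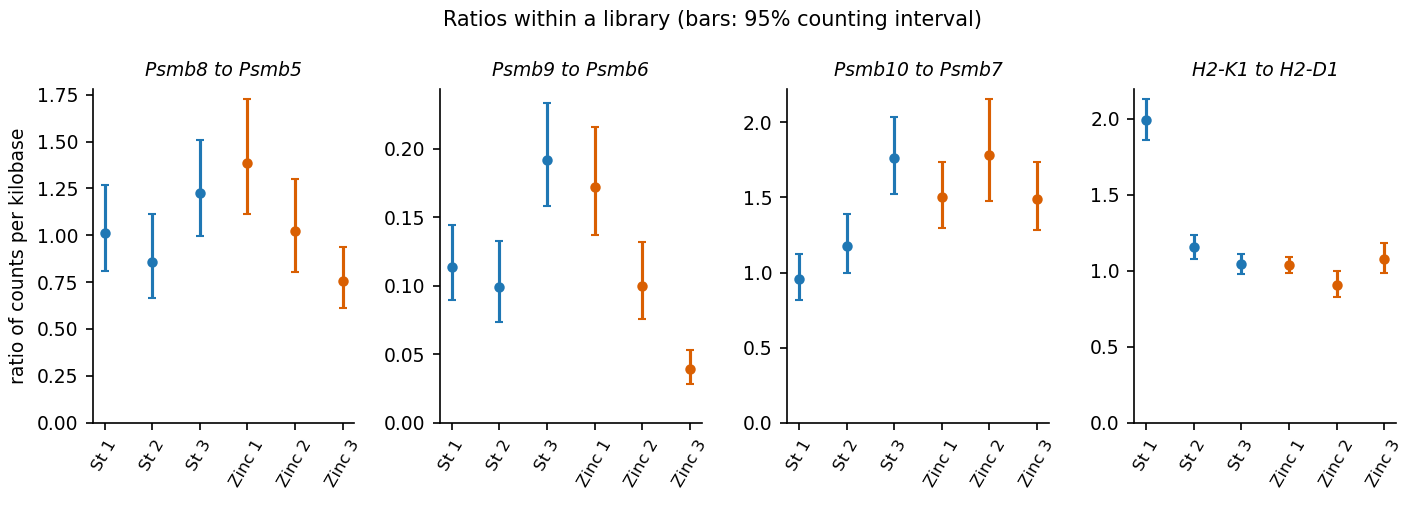
Ratio of counts per kilobase within each library for Psmb8 to Psmb5, Psmb9 to Psmb6, Psmb10 to Psmb7 and H2-K1 to H2-D1, blue for St_TNF and orange for ZincDef_TNF, with 95% counting intervals and each panel on its own linear axis from 0. The H2-K1 to H2-D1 ratio stands apart in St_TNF 1 at 1.99, and the Psmb9 to Psmb6 ratio is lowest in ZincDef_TNF 3 at 0.0390.

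All 14 genes listed for the constitutive proteasome had a TMM-scaled log2 fold change above 0, against 50% of all tested genes, with a median of 0.70, and none was called. Of these, 9 are among the 2435 shortest tested transcripts, whose median was 0.29. By total counts the 14 genes summed to 665, 612 and 525 CPM with standard chow and to 434, 541 and 564 CPM with zinc depletion. On that scale 3 of the 14 did not overlap between the groups, all of them lower with zinc depletion, against 10.9% of all tested genes in either direction. Psmb5 had 0.69 (SE 0.47), Psmb6 0.88 (SE 0.52) and Psmb7 0.31 (SE 0.40), with edgeR adjusted p of 0.707, 0.681 and 0.827. When libraries were scaled by the summed counts of the 20S core genes, an alternative chosen after seeing the data, the median of all genes was -0.33 and 27.4% of them had a positive value. The class I median was then 0.00, with 6 of 9 positive, of which Psmb8 and Psmb10 both stood at 0.00, H2-K1 was at -0.38 and Tap2 at 0.47.

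**Figure D4:**
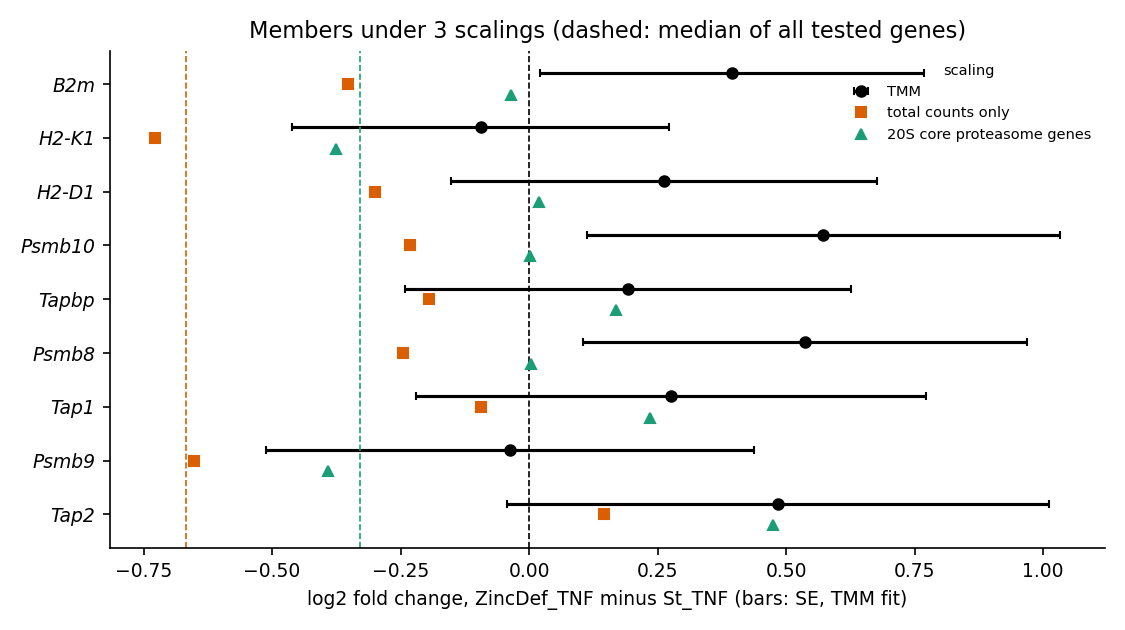
log2 fold change of each tested class I gene, ZincDef_TNF minus St_TNF, under TMM (black, bars for the SE), total counts only (orange) and 20S core proteasome scaling (green), with dashed lines at the median of all tested genes in each. The TMM values run from -0.09 for H2-K1 to 0.57 for Psmb10, and with total counts only Tap2 alone is above 0.

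The class I genes differed in how they moved together over the 6 libraries, given here as description, since all genes share the libraries and their scaling. Tap1 and Tap2 had a Pearson correlation of 0.97 on the TMM scale and 0.98 by total counts. H2-D1 followed the transporter, with 0.97 against Tap2 and 0.94 against Tap1 after TMM. On that scale H2-D1, Tap1 and Tap2 were all lowest in St_TNF 1, and the part of that library in these correlations was not tested. Psmb8 and Psmb10 correlated at 0.95 after TMM and 0.75 by total counts. B2m and H2-K1, whose proteins pair, gave -0.53 after TMM and 0.96 by total counts, so their likeness depended on the scaling. Over all pairs of tested genes, 2.82% reached 0.9 after TMM.

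The genes most like the mean of the 9 class I genes, by Pearson correlation over the 6 libraries among 2429 genes with a mean log2 CPM of at least 4, were Elovl7 (0.986), Ywhah (0.983), Slc35f5 (0.979), Spindoc (0.979) and Atp6v1a (0.976). Elovl7 is a fatty acid elongase, and Atp6v1a is a subunit of the vacuolar proton pump. On the TMM scale they shared with the class I mean a lowest library in St_TNF 1, which follows largely from picking them by this correlation. Elovl7 measured 11.8 TMM-scaled CPM there against 17.5 to 28.5 in the other libraries. St_TNF 1 had the highest TMM factor (1.73), and by total counts the 9 class I genes were instead lowest in ZincDef_TNF 3.

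Of 13 further genes of the class I pathway, all tested, 9 had a TMM-scaled log2 fold change above 0 and 4 below, with a median of 0.19 and none called. The chaperones of the peptide loading complex were abundant. Calr (calreticulin) measured 230.0, 270.4 and 405 TMM-scaled CPM with standard chow and 426, 494 and 563 with zinc depletion. All 3 zinc depleted libraries lay above the standard ones after TMM, but not by total counts, and the log2 fold change of 0.71 (SE 0.42) had an edgeR adjusted p of 0.681. After TMM, Calr was 1 of 13 further pathway genes without overlap, a share near the 10.1% of all tested genes. Canx (calnexin) had 0.19 and Pdia3, a disulfide isomerase, 0.50, both with overlapping groups.

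Tapbpl, a tapasin-related peptide editor, measured 5.62, 13.5 and 30.6 TMM-scaled CPM against 35.0, 37.3 and 24.6, with a log2 fold change of 0.97 (SE 0.54, adjusted p = 0.681 by edgeR). Its groups overlapped through St_TNF 3 and ZincDef_TNF 3. Erap1, the aminopeptidase that trims peptides in the endoplasmic reticulum, had -0.51 (SE 0.41). The proteasome activator subunits Psme1 and Psme2 had 0.14 and 0.83, and by total counts Psme1 was lower in all 3 zinc depleted libraries. On that scale Psme1 was 1 of 13 further pathway genes without overlap, a share near the 10.9% of all tested genes.

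The transcription factors known to act on class I promoters were present at unlike levels. By mean CPM per kilobase Irf1 stood above 89.8% of the tested genes, Irf2 above 75.3% and Rfx5 above 11.2%. Irf1 measured 16.2, 11.2 and 46.2 TMM-scaled CPM in the St_TNF libraries and 58.2, 48.9 and 29.5 in the ZincDef_TNF libraries, with a log2 fold change of 0.90 (SE 0.54, adjusted p = 0.681 by edgeR). St_TNF 3 lay within the range of the zinc depleted libraries. Irf2, a related factor, had -0.49. Of the subunits of the RFX complex, which binds class I and class II promoters, Rfx5 had -0.98 (SE 0.87), Rfxank -0.89 (SE 0.63) and Rfxap 0.28 (SE 0.47), all at means of 2.17 to 3.10 CPM. In each of ZincDef_TNF 2 and ZincDef_TNF 3, Rfx5 had 1 count and Rfxank 5.

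Of the 16 non-classical class I genes and relatives listed, 8 passed the filter and 15 had a count in some library. Of the 8, 6 had a log2 fold change above 0, with a median of 0.45 and none called. H2-T23 was the highest at a mean of 66.4 CPM over the 6 libraries, followed by H2-T22 at 28.7, H2-Q2 at 21.1 and H2-Q4 at 9.55 CPM. Their log2 fold changes were 0.21, 0.49, 0.41 and 0.72, with edgeR adjusted p of 0.714 to 0.865. H2-T3, which encodes the thymus leukemia antigen of intestinal epithelium, went the other way and was chosen after its values were seen. It measured 4.51, 4.34 and 3.58 TMM-scaled CPM with standard chow and 0.482, 0.211 and 2.90 with zinc depletion, the latter from 7, 1 and 17 counts. The log2 fold change of -1.83 (SE 0.76) had an edgeR adjusted p of 0.681. H2-T3 was 1 of the 8 tested genes without overlap, on either scale. Of all tested genes, 10.1% did not overlap after TMM and 10.9% by total counts.

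Class I genes are transcribed in nearly all nucleated cells, so markers of other cells in the sort are given beside them. Of 14 leukocyte markers 12 had a count in some library, and Cd3e and Itgax were at 0 in all 6. Their summed level was 34.0 to 60.8 CPM in the St_TNF libraries and 25.9 to 79.1 CPM in the ZincDef_TNF libraries, most of it from Lcp1 (19.7 to 78.0 CPM), an actin-bundling protein. Ptprc, listed here as a leukocyte marker, had 33 counts in St_TNF 2 and 0 to 6 counts elsewhere. The 6 stromal and endothelial markers summed to 0.681 to 1.63 CPM, with Pdgfra, Cdh5 and Kdr at 0 in all libraries. The 8 enterocyte markers summed to 165, 220 and 50.8 CPM with standard chow and to 40.5, 36.2 and 46.4 CPM with zinc depletion. These sums did not overlap, and none of the 3 enterocyte markers tested was called. The 5 enteroendocrine markers summed to 38.3, 50.5 and 18.8 CPM against 9.61, 6.59 and 20.4 CPM. Cd74, the class II invariant chain, measured 120, 27.0 and 50.8 CPM with standard chow and 30.9, 34.5 and 25.1 with zinc depletion, and none of the 7 class II genes tested was called. The part of these cells in the class I values was not tested.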

How the data were processed

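The authors deposited raw counts of reads per gene, with Ensembl identifiers in rows and a column for each of the 6 libraries. Per the labels, single-end reads were sequenced on an Element AVITI instrument. The submitters' processing notes name FastQC, Trimmomatic 0.39, STAR 2.7.10a, DESeq2 and build mm39. How reads were counted (the program, the strand setting, the handling of multiple matches) is not given in the sources used here.

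Symbols, positions and lengths came from GENCODE M39 (GRCm39), which held 54749 of the 55414 identifiers. Counts were tested with the quasi-likelihood test of edgeR 4.0.16 in R 4.3.3 (TMM, filterByExpr, diet as the only term, two-sided, Benjamini-Hochberg over 9749 genes, threshold 0.05, prior count 2 for log2 CPM), and the procedure was tested on simulated data. On the simulated data that procedure recovered 79 of 196 genes changed 4-fold, with 3 false calls. Of 195 genes changed 8-fold it recovered 178, with 8 false calls. The SE of a log2 fold change is its size divided by the square root of F. Ratios within a library were compared by exact permutation tests in scipy 1.17.1. No pair of libraries of a group agreed within sampling noise (chi-square per degree of freedom 15.3 to 168). Alternatives were RLE factors, total counts, scaling without the Defa genes, no filter, DESeq2 1.42.0, limma-voom (limma 3.58.1), the replicate number as a block and each library left out. Scaling by the 20S core genes and the coding length were added after seeing the data. Counting intervals are Wilson 95% intervals, and like the 3-count limits they cover counting error only, as no molecular identifiers were reported and reads may be copies of 1 molecule.

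The members, the gene lists and the markers were chosen with earlier results of these data known. The naming rule took all members, Psmb5 to Psmb7, the further class I pathway genes (1 of them is not reported here), non-classical genes with a mean of at least 5 CPM, defining markers, and the 5 genes most correlated with the members. H2-T3 and the markers other than Cd74 and Ptprc were named outside this rule, after their values were seen.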

Additional observations from a re-analysis of the deposited data

How the results depend on the processing

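No class I gene passed the threshold under any of the 14 alternatives, in 126 fold changes, of which 16 changed sign. The number of genes called was 0 as reported, 76 without the filter on low counts (17790 genes) and 8 with DESeq2. Leaving out each library in turn gave 0 to 28, with 28 only without St_TNF replicate 3, and the cause was not tested. Class I genes with a positive value numbered 1 of 9 with total counts only, and 5 to 9 when a library was left out, with a median of 0.017 to 0.57. With total counts only, the sign turned for B2m (-0.35), H2-D1 (-0.30), Tap1 (-0.093), Tapbp (-0.20), Psmb8 (-0.24) and Psmb10 (-0.23), while the median of all genes was -0.67. Psmb9 turned to 0.022 with limma-voom, and B2m to -0.035 under 20S core scaling. Leaving out a library turned the sign of Tap1 without St_TNF 1 (range -0.12 to 0.73), Tapbp without St_TNF 1 or ZincDef_TNF 1 (-0.17 to 0.48), Psmb9 without St_TNF 3, ZincDef_TNF 1 or ZincDef_TNF 3 (-0.32 to 0.57) and H2-K1 without ZincDef_TNF 3 (-0.15 to 0.0071). The lowest adjusted p of a class I gene was 0.210 for Psmb10 (edgeR, without ZincDef_TNF 1). Left-out libraries moved the log2 ratio difference of Psmb8 to Psmb5 from -0.22 to 0.22 (-0.00474 and -0.12 without St_TNF 1 and 2) of Psmb9 to Psmb6 from -1.05 to 0.021 and of Psmb10 to Psmb7 from 0.14 to 0.58. The labels number the replicates alike in both groups and do not say what equal numbers share. The correlations of deviations between equal numbers were 0.147, -0.0584 and 0.248. St_TNF 1 and St_TNF 3 correlated best with the zinc depleted library of their own number, and St_TNF 2 with ZincDef_TNF 1 (0.250). With the replicate number as a block in edgeR, 0 genes were called and Psmb9 was at 0.049. An unadjusted p under 0.05 was then found for 962 genes, against 645 as reported, and the smallest adjusted p was 0.212 against 0.681. Depth limits Nlrc5 first, with at most 14 counts, and then Psmb9, with 41 to 126.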
